A study of Mus musculus with 12 samples.

Results

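The response of the liver to a methionine- and choline-deficient (MCD) diet was measured in mice with intact Lpcat3. The comparison used 6 of the 12 liver RNA-seq libraries of the study, 3 from flox mice on the MCD diet and 3 from flox mice on a control diet. Libraries were chosen by their labelled genotype and treatment group alone. Flox mice carried loxP-flanked Lpcat3 alleles (LPCAT3flox/flox in the labels) and no cre by their genotype label, on the C57BL/6 strain, and were labelled male and 6 to 8 weeks old. The MCD diet was given for 8 weeks as a model of non-alcoholic steatohepatitis, and all mice were fasted for 12 h before collection, so the values describe the fasted liver. The labels name no composition for the control diet and do not say whether a library is 1 animal. No length of feeding is given here for the control diet. An age of 6 to 8 weeks stands beside 8 weeks of MCD diet, so the age at collection is unclear. The other 6 libraries came from mice labelled LPCAT3flox/flox-cre, with no driver of the cre named, on the same 2 diets. They entered the choice of tested genes, the scaling, the shared estimate of spread and the fits that left out 1 library. They were also used for a single comparison near the end.

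Methionine and choline feed the synthesis of phosphatidylcholine, the main phospholipid of membranes and of the shell of secreted lipoproteins. Hepatocytes short of it export triglyceride poorly and store it in droplets, and a diet that lacks both nutrients is widely used in mice because steatosis is followed by inflammation and scarring. Hepatocytes are divided by position along the lobule into periportal cells, rich in urea cycle and gluconeogenic enzymes, and pericentral cells, rich in glutamine synthesis and cytochromes P450. The other cells of the liver include resident macrophages (Kupffer cells), stellate cells that make matrix, sinusoidal endothelium, bile duct cells and leukocytes that enter from blood.

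Estimated counts summed to 47356384 to 49363246 in the flox control libraries and to 47903640 to 65516723 in the flox MCD libraries. Genes above 0 numbered 17870 to 18698 on the control diet and 19454 to 19988 on the MCD diet. TMM scaling factors were 0.6836 to 0.993 and 1.1815 to 1.2518, so detection and scaling both split by diet. The part of this split in the control zeros and in the calls was not tested. A single ribosomal RNA row (CT010467.1) took 7.34% to 43.04% of the counts, the most in flox control 1, and the share of mitochondrially encoded mRNAs was 6.26% to 14.66%. Log2 levels correlated at 0.915 to 0.940 among the control libraries, 0.960 to 0.968 among the MCD libraries and 0.901 to 0.937 between diets. The libraries labelled male all held Xist, the X-inactivation RNA, with 9415 to 23106 counts, while Ddx3y, Uty, Eif2s3y and Kdm5d of the Y chromosome had no count. Albumin, the main protein made by hepatocytes, held 42924, 58341 and 80306 CPM in the control libraries and 52076, 34172 and 48014 CPM in the MCD libraries. In 1 library of the other genotype, labelled cre MCD 3, Lpcat3 stood at the flox level, and it enters the shared spread. The fit without cre MCD 3 called 904 genes and held 825 of the 871 calls of the main fit. Among the genes chosen for naming, Ehhadh, Plin2 and Anxa5 were then also called higher and Cyp2b10 and Bhlhe40 lower. The calls of Aldh1l2, Elovl1, Cyp4a12b and Krt23 were not held (adjusted p of 0.052 to 0.067). Levels are given as CPM, estimated counts relative to the library total after TMM scaling, with libraries 1, 2 and 3 in that order. The quasi-likelihood test of edgeR gave the log2 fold changes, a gene was called at a Benjamini-Hochberg adjusted p under 0.05, and such p-values measure only the spread between these samples.

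In all, 871 of 16523 tested genes were called, which is 5.27% of them. Of these 437 were higher on the MCD diet (2.64%) and 434 lower (2.63%), and the median log2 fold change over all tested genes was 0.01. At least 4-fold changes were seen for 151 higher and 130 lower genes, and at least 16-fold changes for 61 and 51. The levels of the 3 MCD and 3 control libraries did not overlap for 433 of the higher and 426 of the lower genes, against 24.08% of all tested genes. When each of the 12 libraries was left out in turn, 164 higher and 170 lower genes were called in every fit, and these are described below as kept. On the FPKM scale, which the authors normalised to library totals without TMM, the median log2 fold change of all genes was 0.37 and the split became 2279 higher and 167 lower, so family counts on that scale are given below where their balance turns.

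**Figure D1:**
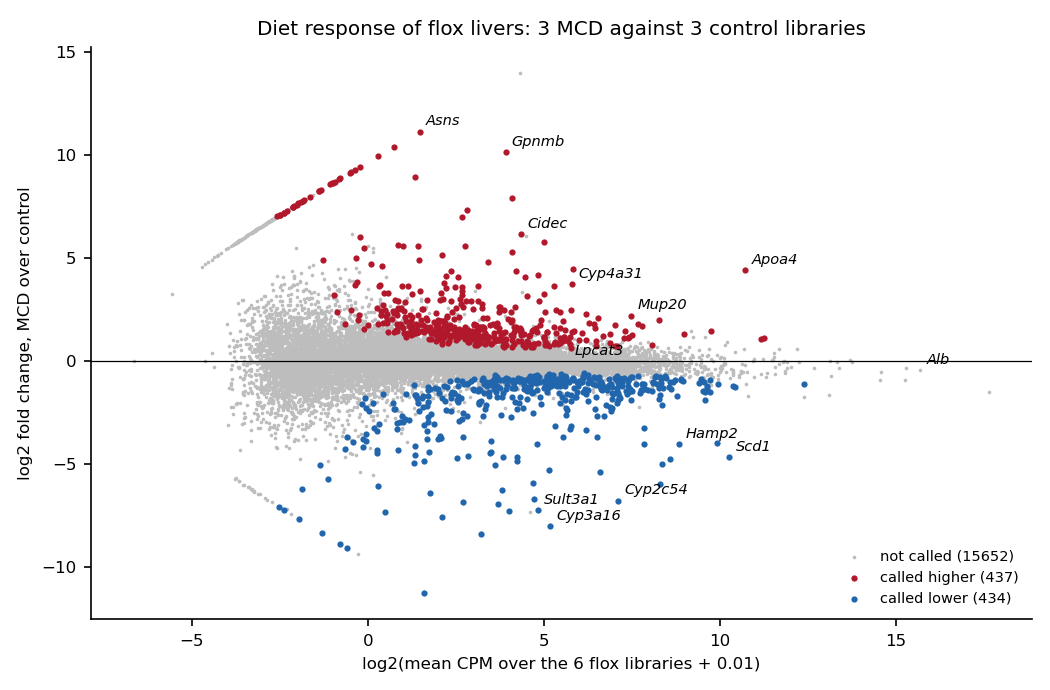
Log2 fold change on the MCD diet (vertical axis) against the log2 mean level over the 6 flox libraries (horizontal axis, log2(CPM + 0.01)) for all 16523 tested genes, with 437 called higher in red and 434 called lower in blue. The diagonal run of points at the upper left holds genes with no counts in the control libraries, whose fitted values are not bounds; Lpcat3 and Alb lie near 0.

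Lpcat3, the lysophosphatidylcholine acyltransferase that places polyunsaturated chains into phospholipids and that is intact in these mice, held 46.2, 46.9 and 63.4 CPM in the control libraries and 55.7, 41.4 and 56.3 CPM in the MCD libraries (log2 fold change -0.03, adjusted p = 0.98, SE 0.35). The groups overlapped. Its full-length coding transcript was present in all 6 libraries, at 9.90 to 24.1 FPKM. Lpcat3 (chromosome 6, 124663027 to 124704418, GRCm38) overlaps Emg1 on the other strand, and whether the counting used strand is not given in the sources used here. None of the 14 lysophospholipid acyltransferases tested was called (4 higher and 0 lower on the FPKM scale), and their median log2 fold change was 0.50, with Agpat3 at 0.65 (adjusted p = 0.083).

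Sult1e1 (chromosome 5, 87575969 to 87591594), the estrogen sulfotransferase, which the title of the series names in a misspelt form, held 0.860, 0.802 and 7.19 CPM on the control diet and 71.3, 44.7 and 45.8 CPM on the MCD diet (log2 fold change 4.17, adjusted p = 0.034, SE 1.05). All 3 MCD libraries lay above the highest control library, and flox control 3 lay far above the other control libraries. The call was not held without flox control 1, flox control 2 or any flox MCD library, where the adjusted p reached 0.12.

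Among kept changes of genes with a mean of at least 5 CPM over the flox libraries, the rises included Gpnmb, Mmp12, Ubd, Cidec and Ly6d, and the falls major urinary proteins, cytochromes P450 and a sulfotransferase. Ubd, which encodes the ubiquitin-like modifier FAT10, held 0, 0 and 0.230 CPM in the control libraries and 14.2, 10.9 and 16.7 CPM in the MCD libraries (log2 fold change 7.32, adjusted p = 0.00028, SE 0.85). Apoa4, an apolipoprotein secreted with triglyceride-rich particles, held 66.8, 136 and 251 CPM and then 2935, 2913 and 3819 CPM (log2 fold change 4.41, adjusted p = 0.00022, SE 0.50). Aqp4, a water channel, went from 0.830, 0.275 and 1.4003 CPM to 24.99, 46.9 and 27.7 CPM (log2 fold change 5.30, adjusted p = 2.4e-05, SE 0.46). In each of these the lowest MCD library was above the highest control library. The serine protease Prss8 (log2 fold change 4.09), the protease inhibitor Slpi (4.39), the cell surface proteoglycan glypican 1, Gpc1 (3.66), the calcium-binding protein Cgref1 (5.59) and Uap1l1 (4.06), a relative of a UDP-N-acetylhexosamine pyrophosphorylase, also rose, and these calls were kept.

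**Figure D2:**
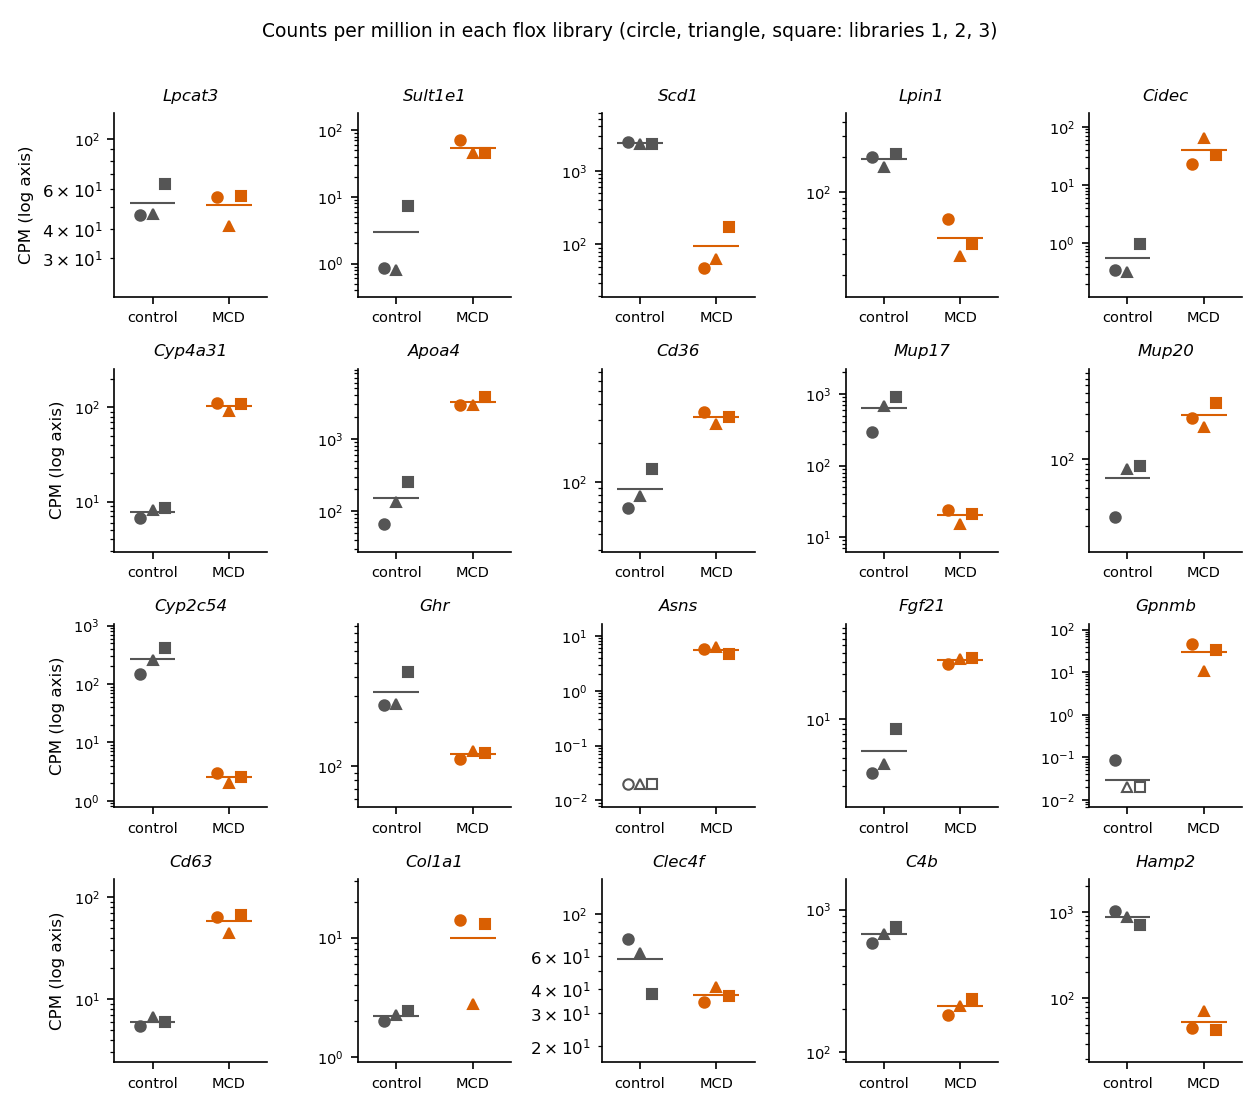
CPM in each flox library (vertical log axes) for 20 genes on the control and the MCD diet, with circles, triangles and squares for libraries 1, 2 and 3 and a line at the group mean. Open symbols stand for 0 and are drawn at 0.02; Lpcat3 and Clec4f overlap between diets and the other 18 genes do not.

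Several enzymes of lipid synthesis were lower on the MCD diet. Of 24 genes of fatty acid synthesis, desaturation and elongation 6 fell and 2 rose, with 2 and 1 kept and a median log2 fold change of -0.32. The 6 became 3 with flox MCD 1 left out and 2 with flox MCD 2 left out, and on the FPKM scale the list held 3 higher and 2 lower members. Acly, ATP citrate lyase, which supplies cytosolic acetyl-CoA, held 53.6, 50.01 and 47.6 CPM in the control libraries and 20.4, 16.1 and 17.3 CPM in the MCD libraries (log2 fold change -1.49, adjusted p = 0.0052, SE 0.27). Elovl6, which elongates palmitate, held 104, 94.3 and 50.8 CPM and then 24.9, 33.8 and 20.9 CPM (log2 fold change -1.65, adjusted p = 0.0046, SE 0.29). Both calls were kept, and no MCD library reached the lowest control library. Scd1, the stearoyl-CoA desaturase, held 2464, 2295 and 2338 CPM on the control diet against 48.0, 63.6 and 172 CPM on the MCD diet (log2 fold change -4.65, adjusted p = 0.011, SE 0.94). Its control libraries were close together and flox MCD 3 was the highest of the MCD libraries, and the call was not held without flox MCD 1 or flox MCD 2, where the adjusted p reached 0.061. Fasn, fatty acid synthase, fell by 1.74 and Srebf1, the transcription factor of the lipogenic program, fell by 1.45. The call of Fasn was not held without flox MCD 2 or flox MCD 3, where the adjusted p reached 0.066, and that of Srebf1 was not held without flox control 1, flox control 2, flox MCD 1 or flox MCD 2, where the adjusted p reached 0.097. Acss2, acetyl-CoA synthetase, was also called lower (-0.96) and was not held without any flox MCD library, where the adjusted p reached 0.085, and it overlaps Gss on the other strand, which was called higher. The elongase Elovl7 rose (2.95, kept) at a low level, from 0.356, 0.160 and 0.627 CPM to 2.35, 4.52 and 2.07 CPM.

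Triglyceride synthesis held 1 called gene of 11, the phosphatidate phosphatase Lpin1, which also acts as a transcriptional coactivator. Lpin1 held 200.3, 163 and 213 CPM in the control libraries and 58.9, 28.8 and 36.2 CPM in the MCD libraries (log2 fold change -2.22, adjusted p = 0.0086, SE 0.43), a kept fall with no overlap. On the FPKM scale this list held 4 higher members and 1 lower. Of 24 cholesterol synthesis genes 3 fell and 0 rose, 22 had a negative log2 fold change and the median was -0.44. The sterol reductase Tm7sf2 held 49.8, 59.2 and 139 CPM and then 22.3, 16.1 and 12.6 CPM (log2 fold change -2.28, adjusted p = 0.0023, SE 0.36), and it shares its locus with Vps51 on the same strand. The sterol reductase Dhcr7 (-0.995) and the isomerase Ebp (-0.93) were the other 2 called genes, and 1 of the 3 calls remained in the list without flox MCD 2 or flox MCD 3.

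Genes that coat or mobilise lipid droplets had higher mean levels on the MCD diet. All 17 tested members had a positive log2 fold change (median 0.33), 4 were called higher and 3 of these were kept (7 higher and 0 lower on the FPKM scale). Cidec, which fuses droplets, held 0.356, 0.321 and 0.982 CPM in the control libraries and 22.6, 65.2 and 32.6 CPM in the MCD libraries (log2 fold change 6.15, adjusted p = 2.4e-05, SE 0.51). Plin3, a droplet coat protein, held 10.7, 11.6 and 13.4 CPM and then 26.7, 32.5 and 27.7 CPM (log2 fold change 1.28, adjusted p = 0.005, SE 0.23), and Hilpda, which inhibits adipose triglyceride lipase, rose by 1.86 (kept). The lipase itself, Pnpla2, was called higher (1.35), a call not held without flox control 1, flox control 2, flox MCD 1 or flox MCD 2, where the adjusted p reached 0.097. Plin2, the main hepatocyte droplet coat, held 179, 266 and 476 CPM against 498, 1395 and 640.3 CPM and did not pass (1.46, adjusted p = 0.094). It did pass when cre MCD 3 was left out (adjusted p = 0.047). The MCD libraries of Plin2 all lay above the control libraries, flox MCD 2 far above the others. The number of called droplet genes was 7 without flox control 3 and 5 without the library labelled cre MCD 3.

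Of 17 genes of uptake, binding and CoA activation 3 rose and 3 fell (6 higher and 0 lower on the FPKM scale). Cd36, the fatty acid translocase, held 63.5, 78.5 and 127 CPM on the control diet and 345, 283 and 320.5 CPM on the MCD diet (log2 fold change 1.82, adjusted p = 0.0008, SE 0.24). The MCD libraries all lay above the control libraries, and the call was kept. Acsl4, which activates arachidonate, rose by 1.11, a call not held without flox control 2, flox MCD 2 or flox MCD 3, where the adjusted p reached 0.082. The binding protein Fabp4 rose by 1.12, a call not held without flox control 1 or flox MCD 1, where the adjusted p reached 0.088. The medium-chain acyl-CoA synthetases Acsm1 (-0.997) and Acsm5 (-1.04) and the bile acid and fatty acid CoA ligase Slc27a5 (-1.65) fell, all 3 kept. Fabp1, the liver fatty acid binding protein, overlapped between diets (0.04).

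Of 29 genes of mitochondrial and peroxisomal fatty acid oxidation and ketogenesis 0 were called (median 0.12; 4 higher and 0 lower on the FPKM scale), with Cpt1a, the entry step into mitochondria, at 99.6, 105 and 238 CPM and 124, 214 and 187 CPM (adjusted p = 0.82). The count of calls was 3 higher without flox control 3 and 1 higher, Ehhadh, without the library labelled cre MCD 3, and 26 of the 29 members were highest in flox control 3 among the controls (38.3% of all tested genes). At an unadjusted p under 0.05 the count over all genes was 3110 against the 871 called, so a missed call here is not evidence of an equal level. Omega-oxidation, acyl-CoA thioesterases and other PPARalpha targets held 7 rises and 1 fall among 20 (median 0.44), with 4 rises kept. Cyp4a31, an omega-hydroxylase, held 6.76, 8.16 and 8.65 CPM in the control libraries and 112, 91.0 and 109 CPM in the MCD libraries (log2 fold change 3.73, adjusted p = 5.3e-07, SE 0.21). Acot2, a mitochondrial acyl-CoA thioesterase, held 19.9, 25.5 and 29.0 CPM and then 103, 151 and 112 CPM (log2 fold change 2.30, adjusted p = 0.00013, SE 0.24), and Pex11a, which divides peroxisomes, rose by 1.26. These rises had no overlap between diets and were kept. Cyp4a14, a further omega-hydroxylase, was called higher (1.12, adjusted p = 0.049), a call not held without flox control 1, flox control 2, any cre control library, any flox MCD library, cre MCD 1 or cre MCD 2, where the adjusted p reached 0.21. Its relative Cyp4a10 was lower in every MCD library than in every control library and was not called (-0.78, adjusted p = 0.093). The Cyp4a genes resemble each other closely, which makes the count of each copy uncertain. The 7 rises became 4 with flox control 2, flox MCD 2 or flox MCD 3 left out.

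Of 23 apolipoproteins and lipoprotein assembly genes 3 rose and 2 fell. Besides Apoa4, the lipoprotein lipase Lpl held 37.0, 44.4 and 23.9 CPM in the control libraries and 189.9, 89.1 and 167 CPM in the MCD libraries (log2 fold change 2.08, adjusted p = 0.003, SE 0.34), and Angptl8, which acts with a secreted inhibitor of it, rose by 1.86. Lipc, hepatic lipase, fell from 155, 228 and 229 CPM to 60.6, 69.2 and 80.2 CPM (log2 fold change -1.54, adjusted p = 0.00053, SE 0.20). These 4 calls were kept, and the diets did not overlap. Apob, the structural protein of exported particles, and Mttp, which loads it with lipid, overlapped between diets (log2 fold changes 0.03 and -0.01).

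The diet lacks methionine and choline, and the mRNAs of the enzymes that use them were among those measured. Of 29 genes of the methionine cycle, transsulfuration and folate steps 4 fell and 2 rose, with a median log2 fold change of -0.54 (6 higher and 0 lower on the FPKM scale). The 4 falls became 8 with flox control 1 left out and 2 with flox MCD 1 or flox MCD 3 left out. Sardh, sarcosine dehydrogenase of the choline oxidation route, held 432, 519 and 749 CPM in the control libraries and 239.8, 204 and 214 CPM in the MCD libraries (log2 fold change -1.37, adjusted p = 0.0022, SE 0.21). Aldh1l1, the cytosolic formyltetrahydrofolate dehydrogenase, held 409, 403 and 604 CPM and then 217, 196 and 156 CPM (log2 fold change -1.32, adjusted p = 0.0029, SE 0.22). Both falls were kept. Cbs, the first transsulfuration enzyme, fell by 0.86, a call not held without any flox MCD library, where the adjusted p reached 0.087. Mthfd1l, of the mitochondrial folate route, rose from 0.385, 0.481 and 0.167 CPM to 1.57, 2.41 and 2.15 CPM (log2 fold change 2.57, adjusted p = 0.0039, SE 0.44) and was kept. Its companion Aldh1l2 had no counts on the control diet and 0.317, 0.309 and 0.323 CPM on the MCD diet, at least 13.2-fold higher against a floor of 3 counts over the control group, a call not held without any flox control library, cre control 1, cre control 3, any flox MCD library or any cre MCD library, where the adjusted p reached 0.12. Mat1a, which makes S-adenosylmethionine in the mature liver, and Gnmt, which disposes of it, overlapped between diets and were not called (log2 fold changes -0.61 and -1.24). Mat2a, the form of other tissues, held 35.01, 23.4 and 63.3 CPM against 70.0, 112 and 68.1 CPM without overlap and was not called (1.04, adjusted p = 0.083).

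Phosphatidylcholine and phosphatidylethanolamine synthesis held 1 called gene of 18, the choline transporter Slc44a1 (-0.73, adjusted p = 0.03), and 3 higher with 0 lower on the FPKM scale. That call was not held without flox control 2, flox control 3 or any flox MCD library, where the adjusted p reached 0.13. Pemt, which makes phosphatidylcholine by methylation, held 93.1, 149 and 212 CPM and 230.0, 199 and 199 CPM, and Pcyt1a, the rate-limiting enzyme of the choline route, 37.9, 13.4 and 43.4 CPM and 40.7, 43.3 and 40.9 CPM. In both genes the diets overlapped. Pcyt1a overlaps Slc51a on the other strand.

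Bile acid synthesis held 4 falls and 0 rises among 16 genes (median -0.52), 3 of them kept. Cyp2c70, the mouse enzyme of muricholate synthesis, held 201, 207 and 242 CPM in the control libraries and 49.1, 29.5 and 79.9 CPM in the MCD libraries (log2 fold change -2.04, adjusted p = 0.0038, SE 0.35). Akr1d1, the steroid 5-beta reductase, fell by 1.09, and Slc27a5, described above, is the third kept fall. Cyp7a1, the rate-limiting enzyme of the classic route, overlapped between diets (19.1, 8.82 and 38.1 CPM against 38.1, 26.3 and 50.9 CPM). Among 19 hepatobiliary transporters 4 rose and 2 fell. The efflux pumps Abcg2 (0.99) and Abcb1a (1.38) rose and the uptake carrier Slco1a1 fell from 3.85, 10.1 and 8.95 CPM to 0.450, 0.689 and 0.594 CPM (log2 fold change -3.72, adjusted p = 0.0028, SE 0.60), and these 3 calls were kept. The basolateral exporter subunit Slc51b had counts in 1 of 3 control libraries (0, 0 and 0.272 CPM) and in all MCD libraries (4.50, 0.760 and 2.31 CPM), a call not held without flox control 2 or flox MCD 1, where the adjusted p reached 0.066. The 4 rises became 2 with flox control 2 or flox MCD 1 left out.

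Major urinary proteins, lipocalins made by the liver under growth hormone and excreted to carry pheromones, gave the most uniform fall of any list counted. Of 19 tested members 17 fell, 1 rose and 1 was not called, and the 18 calls were kept. The median log2 fold change was -5.04, and the list held 17 falls and 1 rise on the FPKM scale too. Mup17 (chromosome 4, 61591929 to 61595871) held 299, 686 and 922 CPM in the control libraries and 23.9, 15.3 and 21.2 CPM in the MCD libraries (log2 fold change -4.98, adjusted p = 6.4e-05, SE 0.48). Mup3 held 782, 1819 and 2826 CPM and then 94.0, 96.6 and 149 CPM (log2 fold change -4.00, adjusted p = 0.00015, SE 0.43). In both, flox control 1 was the lowest of the controls and still above every MCD library, and 17 of the 19 members were lowest in flox control 1 among the controls (39.5% of all tested genes). Mup20, known as darcin, moved the other way, from 24.6, 78.9 and 85.7 CPM to 269, 216 and 388 CPM (log2 fold change 2.20, adjusted p = 0.0089, SE 0.43). Mup21 was the uncalled member, with overlapping diets. The Mup genes lie side by side on chromosome 4 as near-identical copies, so reads can be split among them and the count of any copy is uncertain.

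How alike the copies are at their starts is shown by 44 bases around the TATA-like letters of RefSeq promoter windows (GRCm38.p6, gene strand), which were at hand with those letters for 10 members. The capitals mark the letters TATATAAG, and 6 of the 10 members share 1 sequence, given here for Mup2, Mup9 and Mup19. Mup3, which was called lower, and Mup21, which was not called, differ from it at 3 and 4 of the 44 bases, and this is a description with no test.
Mup2 (chr4:60139856-60139899, minus strand): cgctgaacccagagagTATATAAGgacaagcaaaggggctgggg
Mup9 (chr4:60421956-60421999, minus strand): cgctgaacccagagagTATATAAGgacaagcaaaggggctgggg
Mup19 (chr4:61782228-61782271, minus strand): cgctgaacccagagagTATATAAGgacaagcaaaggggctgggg
Mup3 (chr4:62087301-62087344, minus strand): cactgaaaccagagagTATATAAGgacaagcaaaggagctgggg
Mup21 (chr4:62150822-62150865, minus strand): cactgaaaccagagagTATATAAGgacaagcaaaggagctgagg

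Growth hormone signalling sets sex-dependent gene expression in the mouse liver. Of 22 genes of the growth hormone and IGF axis 7 fell and 2 rose, with 4 falls kept (3 higher and 1 lower on the FPKM scale). Ghr, the growth hormone receptor, held 259, 265 and 432 CPM in the control libraries and 112, 126 and 123 CPM in the MCD libraries (log2 fold change -1.402, adjusted p = 0.0038, SE 0.24). The prolactin receptor Prlr held 298, 225 and 222 CPM and then 77.0, 77.1 and 89.2 CPM (log2 fold change -1.62, adjusted p = 0.00028, SE 0.19). Igfals, which stabilises circulating IGF, fell by 1.01 and the cytokine receptor Lifr fell by 1.12. All 4 falls were kept and had no overlap. Igf1 was called lower (-1.01), a call not held without flox control 2 or any flox MCD library, where the adjusted p reached 0.13, and the binding protein Igfbp2 higher (1.44), a call not held without flox control 1, flox control 2, cre control 3, any flox MCD library or cre MCD 2, where the adjusted p reached 0.14. The 7 falls became 4 with flox control 2, flox MCD 1 or flox MCD 3 left out. That all libraries held Xist and no Y-linked count is given above, and its part in these results was not tested.

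Falls were frequent among drug-metabolising cytochromes P450. Of 22 Cyp2c and Cyp3a genes 12 fell and 0 rose, 8 of them kept, with a median log2 fold change of -1.45 (8 lower and 2 higher on the FPKM scale). Cyp2c54 held 146, 263 and 411 CPM in the control libraries and 2.95, 2.03 and 2.53 CPM in the MCD libraries (log2 fold change -6.77, adjusted p = 7.3e-06, SE 0.48). Cyp3a16, a form of fetal and female mouse liver, held 107, 25.9 and 82.5 CPM and then 0.417, 0.225 and 0.207 CPM (log2 fold change -8.00, adjusted p = 0.0001, SE 0.82). Cyp2c37, a pericentral enzyme, fell from 886, 1041 and 1446 CPM to 391, 355 and 432 CPM (log2 fold change -1.52, adjusted p = 0.0029, SE 0.25). No MCD library reached a control library in these 3 genes. Cyp3a11, the main drug-metabolising Cyp3a form, overlapped between diets (0.58), as did the ethanol-inducible Cyp2e1 (-0.30). Of 23 other detoxification cytochromes P450 3 fell, Cyp2b13 (-2.34) and Cyp2j5 (-1.39) kept and Cyp1a2 (-1.02) not held without flox control 1, flox control 2 or any flox MCD library, where the adjusted p reached 0.15. Members of the Cyp2c, Cyp3a and Cyp2b families are similar copies, and counts per copy are uncertain.

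Conjugating enzymes were split. Of 17 sulfotransferase genes 5 fell and 2 rose. Sult2a8, which sulfates bile acids in mice, held 272, 388 and 626 CPM in the control libraries and 27.2, 22.3 and 28.3 CPM in the MCD libraries (log2 fold change -4.05, adjusted p = 2.4e-05, SE 0.34), and Sult3a1 held 38.5, 52.6 and 78.2 CPM and then 0.0667, 1.04 and 0 CPM (log2 fold change -7.24, adjusted p = 0.0029, SE 1.18). Both falls were kept. The 5 falls became 3 with flox MCD 1 left out, and the 2 rises, Sult1e1 and Sult2a3, were both lost with any flox MCD library, flox control 1 or flox control 2 left out. Carboxylesterases, which hydrolyse esters and drugs, held 3 falls and 0 rises among 15, with Ces2a from 186, 227 and 189 CPM to 49.4, 38.7 and 37.4 CPM (log2 fold change -2.26, adjusted p = 2.4e-05, SE 0.19) and Ces3b at -3.68, both kept. UDP-glucuronosyltransferases held 2 falls among 18, Ugt2a3 (-1.59, kept) and Ugt3a1 (-1.72), the second not held without flox MCD 1 or flox MCD 2, where the adjusted p reached 0.073. Glutathione S-transferases went the other way, with 5 rises and 1 fall among 22. Gsta1 held 2.25, 1.42 and 1.53 CPM and then 49.1, 28.2 and 28.3 CPM (log2 fold change 4.35, adjusted p = 0.0061, SE 0.80), and Gstp1 held 85.5, 109 and 121 CPM and then 383, 311 and 323 CPM (log2 fold change 1.69, adjusted p = 0.0022, SE 0.26). Gstm3 (1.94) was the third kept rise and Gstt3 (-1.49) the kept fall. The 5 rises became 3 with any flox control library, flox MCD 1 or flox MCD 3 left out.

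**Figure D3:**
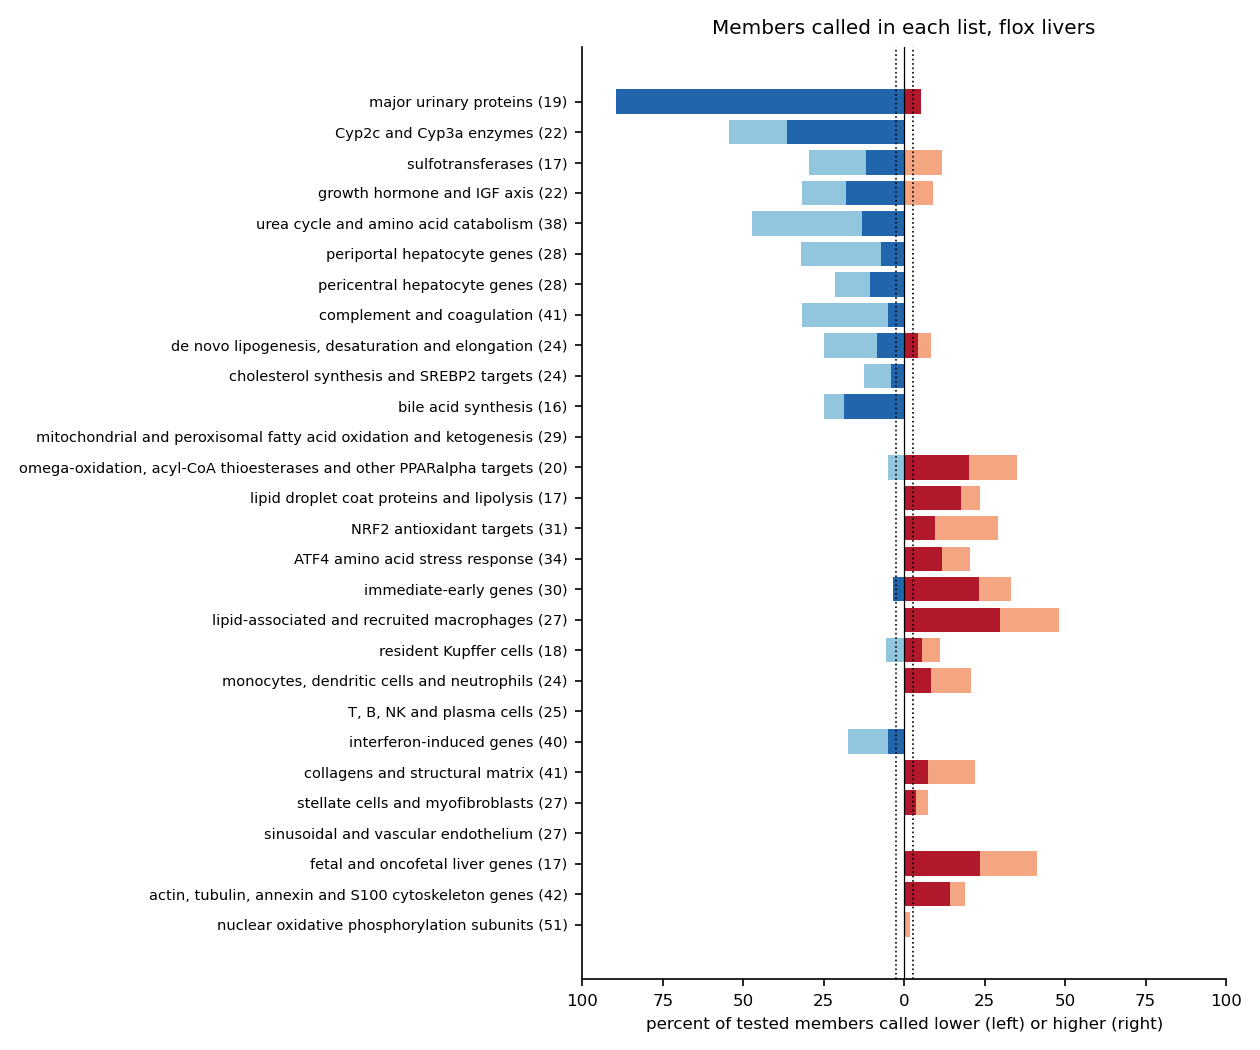
Percent of tested members called lower (left, blue) and higher (right, red) on the MCD diet for 28 lists, with the number tested in parentheses; dark parts are members called in all 12 fits that left out 1 library, and dotted lines mark the 2.63% and 2.64% of all tested genes. Major urinary proteins and Cyp2c and Cyp3a enzymes reach farthest to the left, and lipid-associated macrophage markers farthest to the right.

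Of 38 genes of the urea cycle and amino acid catabolism 18 fell and 0 rose, with a median log2 fold change of -0.80, but 5 falls were kept. The 18 became 7 with flox MCD 1 or flox MCD 2 left out and 5 with flox MCD 3 left out, and on the FPKM scale 0 members were called in either direction. In the control libraries 32 of the 38 members were highest in flox control 3 (38.3% of all tested genes), and without that library 12 genes fell. Otc, which makes citrulline, held 283, 411 and 494 CPM in the control libraries and 136, 119 and 176 CPM in the MCD libraries (log2 fold change -1.46, adjusted p = 0.0029, SE 0.24). Haao, of the tryptophan to NAD route, held 188, 264 and 340.4 CPM and then 97.2, 91.9 and 98.0 CPM (log2 fold change -1.46, adjusted p = 0.0016, SE 0.22). The histidine enzymes Uroc1 (-1.34) and Amdhd1 (-1.10) and serine dehydratase, Sds (-1.45), were the other kept falls. Cps1, the first urea cycle step, overlapped between diets (-0.53).

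By zone, 9 of 28 periportal and 6 of 28 pericentral genes fell and 0 rose in either list, with medians of -0.63 and 0.02. On the FPKM scale the counts were 1 higher and 0 lower for periportal and 3 higher and 2 lower for pericentral genes. Rgn, a pericentral lactonase of calcium and vitamin C metabolism, held 962, 1138 and 1503 CPM in the control libraries and 316, 239 and 411 CPM in the MCD libraries (log2 fold change -1.90, adjusted p = 0.0025, SE 0.30), a kept fall. Glul, glutamine synthetase, which marks the innermost pericentral cells, overlapped between diets (0.28). The periportal falls became 5 with flox control 2 left out, 4 with flox MCD 1 left out, 3 with flox MCD 2 left out and 2 with flox MCD 3 left out, and the pericentral falls 3 with flox MCD 3 left out.

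Hepatocyte transcription factors held 1 rise and 3 falls among 29 (2 higher and 0 lower on the FPKM scale), where 5.27% of all tested genes were called. Pparg, the lipid-storing nuclear receptor of fat cells, rose from 3.68, 3.48 and 6.06 CPM to 13.3, 11.9 and 14.7 CPM (log2 fold change 1.59, adjusted p = 0.0017, SE 0.24), and Esr1, the estrogen receptor, fell from 23.0, 21.5 and 21.0 CPM to 8.84, 6.58 and 10.2 CPM (log2 fold change -1.36, adjusted p = 0.0042, SE 0.24). Both calls were kept. Hnf4a, a master factor of hepatocytes, was called lower (-0.88) and so was the xenobiotic receptor Nr1i2 (-0.70), calls not held without any 1 of the flox MCD libraries. Albumin overlapped between diets (log2 fold change of Alb -0.44), and 4 of 23 hepatocyte secreted proteins fell, none of them in every fit.

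Several plasma protein genes fell. Of 41 complement and coagulation genes 13 fell and 0 rose (median -0.54), 2 of them kept, and on the FPKM scale the list held 2 higher and 0 lower. C4b, complement component 4, held 587, 676 and 760.0 CPM in the control libraries and 182, 212 and 236 CPM in the MCD libraries (log2 fold change -1.68, adjusted p = 0.00044, SE 0.21), and C8g of the membrane attack complex fell by 1.30. The count of 13 became 4 with flox control 2 left out, 7 with flox control 3 left out, 2 with flox MCD 1 left out, 3 with flox MCD 2 left out and 5 with flox MCD 3 left out. Hamp2, a copy of the iron hormone hepcidin, held 1020.2, 882 and 701 CPM and then 45.04, 71.5 and 42.7 CPM (log2 fold change -4.03, adjusted p = 0.00046, SE 0.50), a kept fall. Its neighbour Hamp overlapped between diets (363, 733 and 491 CPM against 619, 348 and 814 CPM). Both are alike in sequence, so the split of reads between them is uncertain.

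Glucose genes held 2 rises and 2 falls among 32 (7 higher and 0 lower on the FPKM scale). Aldoa, the aldolase of muscle and fetal liver, held 63.7, 65.1 and 74.4 CPM in the control libraries and 183, 179.6 and 138 CPM in the MCD libraries (log2 fold change 1.30, adjusted p = 0.0012, SE 0.18). Pygl, liver glycogen phosphorylase, fell from 143, 167 and 201 CPM to 64.9, 64.9 and 85.4 CPM (log2 fold change -1.25, adjusted p = 0.0063, SE 0.23). Both calls were kept. Pck1, of gluconeogenesis, was not called (-0.58).

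Stress genes that answer to amino acid shortage rose in part. ATF4 is a transcription factor whose translation increases when amino acids are short or the endoplasmic reticulum is stressed. Of 34 targets 7 rose and 0 fell, 4 of them kept, and 5 to 8 were called when any 1 library was left out. Asns, asparagine synthetase, had no counts in the 3 control libraries and 5.69, 6.23 and 4.73 CPM in the MCD libraries. Against a floor of 3 counts over the control group it was at least 230.3-fold higher. Slc7a11, the cystine transporter, likewise had none and then 1.001, 0.858 and 2.31 CPM, at least 60.1-fold higher against the same floor. Such floors cover counting error only and treat estimated counts as reads. Fgf21, a hormone of fasting and protein restriction, held 2.79, 3.41 and 7.86 CPM and then 38.3, 42.5 and 43.4 CPM (log2 fold change 3.14, adjusted p = 0.003, SE 0.52). The stress factor Nupr1 held 1.51, 1.86 and 0.669 CPM in the control libraries and 16.3, 8.36 and 7.91 CPM in the MCD libraries (log2 fold change 3.02, adjusted p = 0.0016, SE 0.45), and the mitochondrial carboxykinase Pck2 4.09, 5.43 and 4.41 CPM and then 13.2, 15.9 and 14.1 CPM (log2 fold change 1.63, adjusted p = 0.00083, SE 0.22). No MCD library of these genes fell to the control range. The calls of Slc7a11, of Psat1 (serine synthesis) and of the pseudokinase Trib3 were not kept. The first was not held without flox MCD 3, where the adjusted p reached 0.057, the second not held without flox control 2 or flox MCD 2, where the adjusted p reached 0.056, and the third not held without any flox control library, any cre control library or any flox MCD library, where the adjusted p reached 0.12. Atf4 itself, Ddit3 and Gdf15 overlapped between diets.

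The amino acid response letters TGATGNAA (8 bases, either strand) were searched in RefSeq promoter windows of 300 bases, 250 before to 50 after the start (GRCm38.p6). They occur in 6 of the 7 risen targets, in 11 of the 30 list members with a window and in 4.51% of 27025 genes. The matches are shown with 30 bases on either side, or to the end of the window, on the gene strand, with the letters in capitals. A match is a description of the sequence, not a bound site, and the list itself was built from known ATF4 targets.
Asns (chr6:7693195-7693262, minus strand): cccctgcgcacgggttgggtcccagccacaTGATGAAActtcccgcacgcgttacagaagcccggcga
Slc7a11 (chr3:50443642-50443709, minus strand): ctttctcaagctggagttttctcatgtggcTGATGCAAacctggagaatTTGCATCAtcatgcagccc
Fgf21 (chr7:45615592-45615659, minus strand): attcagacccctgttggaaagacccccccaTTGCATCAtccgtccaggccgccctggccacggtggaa
Nupr1 (chr7:126625543-126625610, minus strand): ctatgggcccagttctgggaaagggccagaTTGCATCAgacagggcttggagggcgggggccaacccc
Pck2 (chr14:55540133-55540200, plus strand): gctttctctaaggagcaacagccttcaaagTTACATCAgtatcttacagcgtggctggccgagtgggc
Trib3 (chr2:152344011-152344076, minus strand): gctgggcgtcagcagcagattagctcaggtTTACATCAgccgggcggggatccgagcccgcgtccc

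Antioxidant genes under NRF2, which is freed by oxidants, held 9 rises and 0 falls among 31 (median 0.56), with 3 kept. Srxn1, sulfiredoxin, held 20.04, 25.6 and 30.7 CPM in the control libraries and 77.7, 79.1 and 59.9 CPM in the MCD libraries (log2 fold change 1.51, adjusted p = 0.0015, SE 0.22). Hmox1, heme oxygenase, held 6.55, 5.64 and 6.08 CPM and then 28.9, 17.3 and 30.1 CPM (log2 fold change 2.06, adjusted p = 0.0038, SE 0.35), and the aldo-keto reductase Akr1b8 rose by 1.97. All 3 were kept. Nqo1, a standard target, did not pass (0.90, adjusted p = 0.08) and Gclc, of glutathione synthesis, lay at -0.01. The 9 rises became 5 with flox control 2 left out, 4 with flox MCD 1 left out and 3 with flox MCD 3 left out. The antioxidant response letters TGACNNNGC (9 bases, either strand) were in the windows of 2 of 8 risen members, 9 of 27 members and 13.99% of all genes.

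Immediate-early genes, the first to be transcribed after a stimulus, held 10 rises and 1 fall among 30 (median 0.84), 7 rises and the fall kept. Atf3 held 1.60, 2.91 and 2.72 CPM in the control libraries and 23.8, 15.1 and 10.7 CPM in the MCD libraries (log2 fold change 2.77, adjusted p = 0.00051, SE 0.35), and the orphan receptor Nr4a1 held 1.51, 2.04 and 2.55 CPM and then 20.7, 15.5 and 9.67 CPM (log2 fold change 2.91, adjusted p = 0.0045, SE 0.51). Klf6 (1.59), Ier3 (2.51), Junb (1.398) and Myc (1.53) were also kept. Flox MCD 1 was the highest MCD library for 19 of the 30 members (33.3% of all tested genes). The phosphatase Dusp1, which switches off MAP kinases, fell from 74.9, 81.6 and 113 CPM to 42.4, 29.2 and 24.0 CPM (log2 fold change -1.498, adjusted p = 0.0028, SE 0.24). Endoplasmic reticulum chaperones and XBP1 targets held 2 falls and 0 rises among 27, Herpud1 (-1.53) and Edem1 (-0.86), neither kept. On the FPKM scale they held 1 higher and 0 lower. Of 31 p53 and growth arrest genes 2 rose, Gadd45b (1.53) and the TWEAK receptor Tnfrsf12a (1.98), both kept, while Cdkn1a overlapped between diets (-0.83).

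Markers of lipid-associated and recruited macrophages, cells that enter a fatty liver and take up lipid, were the list with the largest share of rises. Of 27 tested 13 rose and 0 fell, all 27 log2 fold changes were positive and their median was 1.43. Of the 13 calls 8 were kept, and the count was 8 without flox MCD 1 and 15 without the library labelled cre MCD 3. The transmembrane glycoprotein Gpnmb, which macrophages full of lipid express, was counted 3 times over the control libraries and 6080 times over the MCD libraries (46.3, 10.9 and 32.7 CPM). The ratio of 1218 has a 95% interval of 416.5 to 5907 that covers counting error only and treats estimated counts as reads. Cd63, an endosomal tetraspanin, held 5.42, 6.60 and 5.94 CPM and then 63.5, 44.7 and 66.02 CPM (log2 fold change 3.28, adjusted p = 7.8e-06, SE 0.24). Trem2, a lipid-sensing receptor, held 0.267, 1.44 and 0.460 CPM in the control libraries and 12.1, 4.18 and 9.12 CPM in the MCD libraries (log2 fold change 3.53, adjusted p = 0.004, SE 0.61), and Lgals3, galectin 3, held 6.91, 6.39 and 3.91 CPM and then 107, 31.5 and 76.2 CPM (log2 fold change 3.64, adjusted p = 0.0029, SE 0.59). Every MCD library was above every control library in these genes, and flox MCD 2 was the lowest MCD library in each. Cd68, a general macrophage marker, was called (1.66), a call not held without flox control 1, flox control 3, any cre control library, flox MCD 1 or flox MCD 3, where the adjusted p reached 0.16, and Spp1, osteopontin, overlapped between diets (0.89). In whole liver RNA, more cells of a type and more RNA per cell cannot be told apart.

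AP-1-like letters, TGANTCA, were searched on either strand (7 bases, N for any base). They were in the windows of 4 of the 11 risen macrophage markers with a window, 5 of 20 members and 8.97% of all genes. They were in 0 of 24 immediate-early members, where no match says only that these letters are not in these windows. The 4 genes are shown with 30 bases on either side of the letters, which stand in capitals (RefSeq, GRCm38.p6, gene strand). Cd68 has a second match farther upstream, and Trem2 has A at N where the other matches shown have C or G.
Gpnmb (chr6:49036496-49036562, plus strand): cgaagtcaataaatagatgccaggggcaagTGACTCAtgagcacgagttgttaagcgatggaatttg
Mmp12 (chr9:7347300-7347366, plus strand): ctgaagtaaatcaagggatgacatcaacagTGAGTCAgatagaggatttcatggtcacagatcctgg
Cd68 (chr11:69666158-69666224, minus strand): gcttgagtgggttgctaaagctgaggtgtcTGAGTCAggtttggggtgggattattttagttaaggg
Trem2 (chr17:48346362-48346428, plus strand): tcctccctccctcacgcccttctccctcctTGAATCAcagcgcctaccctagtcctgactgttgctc

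Other leukocyte lists moved less. Of 18 resident Kupffer cell markers 2 rose and 1 fell (median 0.12). The rises were Hmox1, also an NRF2 target, and Id3, and the fall was the phagocytic receptor Timd4, from 7.53, 6.60 and 3.03 CPM to 1.401, 2.83 and 2.48 CPM (-1.35, adjusted p = 0.0497), which was not kept. Clec4f, a lectin particular to mouse Kupffer cells in textbooks, overlapped between diets (73.2, 62.3 and 37.9 CPM against 34.2, 41.2 and 37.1 CPM). Of 24 monocyte, dendritic cell and neutrophil markers 5 rose and 0 fell (median 1.11), with S100a11 from 3.62, 5.75 and 3.78 CPM to 33.9, 11.4 and 29.2 CPM (log2 fold change 2.50, adjusted p = 0.002, SE 0.38) and S100a6 (1.93) kept. The 5 became 2 with flox control 1, flox MCD 1 or flox MCD 3 left out and 3 with flox control 2 left out. A further 6 markers of this list, among them the neutrophil genes Mpo, Elane and Ly6g, were not tested, with at most 14 counts in any of the 6 libraries. Of 25 T, B, NK and plasma cell markers 0 were called (median -0.18), and none was called on the FPKM scale.

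Cytokine and interferon genes gave few rises. Of 37 chemokines, cytokines and receptors 2 rose and 4 fell, against a median log2 fold change of 0.98 (14 higher and 2 lower on the FPKM scale, 5 and 4 with limma voom). The skin-type chemokine Ccl27a fell (-1.34, kept), and Ccl2, the monocyte chemoattractant, held 0, 0.871 and 0.355 CPM and then 1.95, 2.11 and 3.88 CPM without a call (2.67, adjusted p = 0.23). The 4 falls became 2 with flox control 1 or any flox MCD library left out. Of 40 interferon-induced genes 7 fell and 0 rose (median -0.35; 1 higher and 0 lower on the FPKM scale). Iigp1, an interferon-gamma-induced GTPase, held 304, 328 and 274 CPM in the control libraries and 133, 117 and 164 CPM in the MCD libraries (log2 fold change -1.13, adjusted p = 0.0074, SE 0.21). Igtp, of the same family, fell by 1.30, and it shares its locus with Irgm2, which was also called lower. These 2 calls were kept, and the 7 became 4 with flox control 1 left out, 2 with flox MCD 1 left out and 3 with flox MCD 2 left out. Acute phase proteins were split, with 3 rises and 2 falls among 24, and the 3 became 1 with flox control 1, flox control 2, flox MCD 1 or flox MCD 3 left out and 5 with cre MCD 1 left out. Apcs, serum amyloid P, rose from 87.1, 122 and 161 CPM to 482, 648 and 348 CPM (log2 fold change 2.00, adjusted p = 0.0015, SE 0.29), while Orm3 (-2.54) and Saa4 (-1.37) fell, all 3 kept. Saa1, the classic inducible form, overlapped between diets (0.29).

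Of 41 collagens and structural matrix genes 9 rose and 0 fell (median 0.87, 37 positive), 3 of them kept. Col4a1, of basement membranes, held 14.2, 10.4 and 9.55 CPM in the control libraries and 35.3, 19.7 and 33.6 CPM in the MCD libraries (log2 fold change 1.37, adjusted p = 0.0047, SE 0.24), and its neighbour Col4a2 lies on the other strand. Nid1, nidogen, held 6.34, 4.12 and 7.09 CPM and then 17.5, 15.7 and 23.3 CPM (log2 fold change 1.69, adjusted p = 0.0039, SE 0.29), and the proteoglycan Dcn held 102, 115 and 100.4 CPM and then 265, 225 and 215 CPM (log2 fold change 1.16, adjusted p = 0.0064, SE 0.21). Col1a1, the main chain of scar collagen, held 1.99, 2.25 and 2.45 CPM on the control diet and 14.0, 2.77 and 12.9 CPM on the MCD diet (log2 fold change 2.15, adjusted p = 0.027, SE 0.51). Here flox MCD 2 lay just above the control libraries and far below flox MCD 1 and flox MCD 3, and the call was not held without any flox control library, flox MCD 1 or flox MCD 3, where the adjusted p reached 0.12. The 9 rises became 5 with flox control 1 or flox control 2 left out, 4 with flox control 3 or flox MCD 1 left out and 3 with flox MCD 3 left out. Of 32 remodelling enzymes and inhibitors 8 rose and 1 fell, with Mmp12, macrophage elastase, kept (0.267, 0.183 and 0 CPM and then 48.3, 11.8 and 42.0 CPM, log2 fold change 7.90). Those 8 became 4 with flox control 1, flox control 3 or cre MCD 2 left out, 1 with flox control 2 left out, 2 with flox MCD 1 left out and 3 with flox MCD 3 left out.

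**Figure D4:**
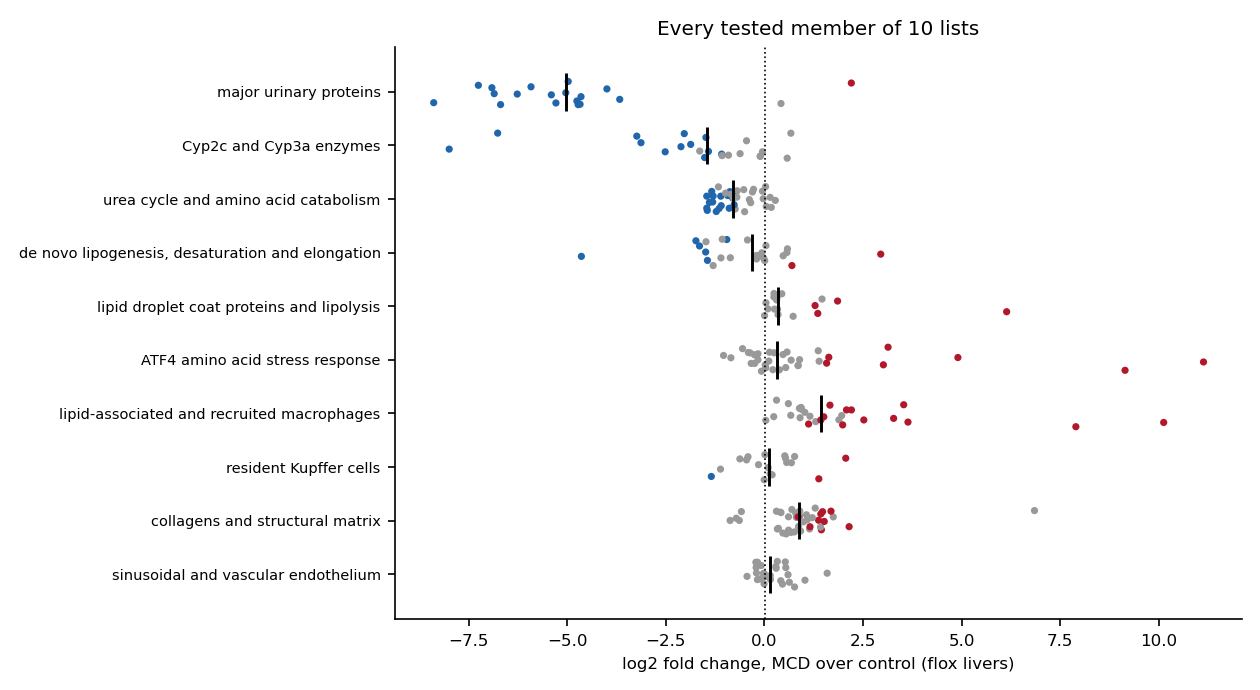
Log2 fold change on the MCD diet (horizontal axis) of every tested member of 10 lists, in red where called higher, blue where called lower and grey where not called, with a bar at each list's median and a dotted line at the median of all tested genes (0.01). All 27 lipid-associated macrophage markers and all 17 lipid droplet genes lie above 0, while Kupffer cell and endothelial markers scatter on both sides.

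Of 27 stellate cell and myofibroblast markers 2 rose (median 0.78, 15 higher and 0 lower on the FPKM scale). Cygb, a globin of stellate cells, held 2.99, 4.35 and 4.18 CPM in the control libraries and 15.7, 8.23 and 14.5 CPM in the MCD libraries (log2 fold change 1.73, adjusted p = 0.0099, SE 0.35) and was kept. Acta2, the actin of myofibroblasts, held 2.79, 4.605 and 2.95 CPM and then 6.27, 19.3 and 7.09 CPM and was not called (1.66, adjusted p = 0.16), with flox MCD 2 far above the other MCD libraries. Of 23 cholangiocyte markers and epithelial keratins 4 rose, none of them kept, among them Krt8 (1.10) and Krt18 (0.72), which hepatocytes also express. Cd24a rose (2.78) from 1.25, 1.95 and 1.505 CPM to 5.19, 24.1 and 3.13 CPM, highest by far in flox MCD 2, a call not held without flox control 1, flox control 2 or flox MCD 2, where the adjusted p reached 0.083. The duct keratin Krt19 showed the same high library (2.39, 12.3 and 1.93 CPM on the MCD diet) and was not called. Of 27 endothelial markers 0 were called (median 0.15; 3 higher and 0 lower on the FPKM scale), and Pecam1 held 9.07, 10.5 and 9.01 CPM against 8.62, 10.8 and 9.14 CPM. Markers of adipocytes, muscle, mesothelium and gallbladder were low: 6 of 20 were tested and 0 called, and 9 of the 14 others had no count in any of the 6 libraries. The 6 tested, of which Krt19 is 1, summed to 16.7 CPM in flox MCD 2 against 3.66 to 6.14 CPM in the other flox libraries, and 4 of the 6 were highest in flox MCD 2 among the MCD libraries. The gallbladder and stomach marker Tff2 had 59 counts in flox MCD 2 and at most 5 in any other flox library, and the pancreatic Ctrb1 had 123 counts in flox MCD 2 and 0 in the others. The part of such tissue in the high Cd24a, Krt19 and Acta2 of flox MCD 2 was not tested.

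The MCD libraries differed in an ordered way. Of the 27 lipid-associated macrophage markers 24 (88.9%) were lowest in flox MCD 2 and 20 (74.1%) highest in flox MCD 1. For all tested genes these shares were 37.2% and 33.3%. Of 41 matrix genes 29 were lowest in flox MCD 2, and of 24 monocyte and neutrophil markers 19. Lists of other kinds were also often lowest in flox MCD 2. The shares were 81.2% of bile acid synthesis, 75.0% of cell cycle, 72.7% of glutathione S-transferase and 70.8% of acute phase genes. They were 50.8% of all genes called higher and 46.5% of those called lower. The highest library differed between these lists. Flox MCD 3 was highest for 62.5% of bile acid synthesis, 80.6% of cell cycle and 54.2% of acute phase genes. Flox MCD 1 was highest for 72.7% of glutathione S-transferase genes. Lipid droplet genes ran the other way, with 11 of 17 highest and 4 of 17 lowest in flox MCD 2. Members of a list share the library, so these counts describe 3 libraries and carry no test.

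**Figure D5:**
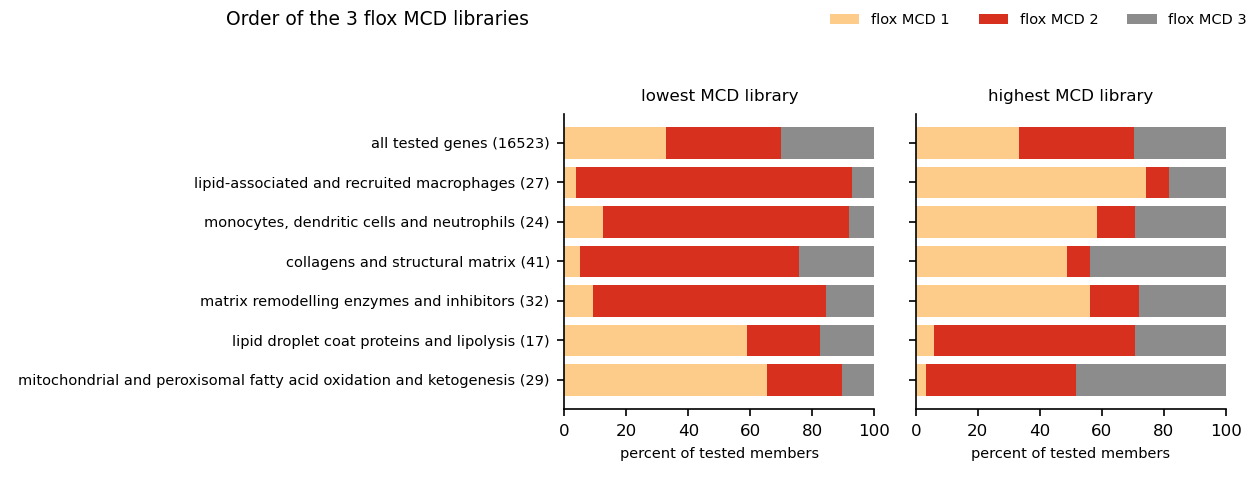
Percent of the tested members of each list whose lowest (left) and highest (right) level among the 3 MCD libraries was in flox MCD 1, 2 or 3, with the number tested in parentheses. Flox MCD 2 was lowest for 24 of 27 lipid-associated macrophage markers and highest for 11 of 17 droplet genes.

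Of 42 actin, tubulin, annexin and S100 genes 8 rose and 0 fell, 6 of them kept. Anxa2, a membrane-binding annexin, held 6.08, 7.70 and 6.88 CPM in the control libraries and 52.8, 40.5 and 60.2 CPM in the MCD libraries (log2 fold change 2.89, adjusted p = 9.3e-05, SE 0.29). Tpm1, a tropomyosin, held 14.2, 17.7 and 13.8 CPM and then 39.8, 42.4 and 40.3 CPM (log2 fold change 1.42, adjusted p = 0.00048, SE 0.18), and Tuba8, a tubulin, rose by 2.60. These kept rises had no overlap. Of 17 tested fetal and oncofetal liver genes 7 rose and 0 fell (median 1.22), 4 of them kept. A further 7 members of this list were not tested, with at most 19 counts in any of the 6 libraries. They were Igf2, Igf2bp1, Igf2bp3, Dlk1, Tff3, Zim1 and Lin28b. Ly6d, a surface protein, held 0.415, 0.893 and 2.09 CPM and then 58.1, 64.2 and 66.8 CPM (log2 fold change 5.77, adjusted p = 3.8e-05, SE 0.52). Afp, alpha-fetoprotein, stayed low, at 0.207, 0 and 0.334 CPM and then 2.12, 2.31 and 2.39 CPM (3.63, adjusted p = 0.019), a call not held without flox control 1 or flox MCD 3, where the adjusted p reached 0.056.

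Organelle and cycle genes are set beside the 5.27% of all tested genes called in either direction. Of 59 lysosomal genes 5 rose and 1 fell (median 0.20), with Cd63 the 1 kept rise. The 5 became 12 with flox control 3 left out and 1 to 3 with each of flox control 1, flox control 2, any cre control library and any flox MCD library left out. The lysosomal E-box letters TCACGTGA (8 bases, either strand) were in the windows of 0 of 4 risen members, 8 of 46 members and 1.12% of all genes. Of 36 cyclin and cell cycle genes 31 had a positive log2 fold change (median 0.76), and their summed level was 166 to 205 CPM on the control diet and 266 to 379 CPM on the MCD diet. The 1 called rise was Ccnd1, which made up a large part of these sums (from 44.3, 85.5 and 56.2 CPM to 129.7, 125 and 179 CPM, 1.22). Its call was not held without flox control 1, flox control 3, cre control 3 or any flox MCD library, where the adjusted p reached 0.14. Mki67, a marker of dividing cells, overlapped between diets. Of 51 nuclear oxidative phosphorylation genes 1 rose, the uncoupling protein Ucp2 (1.32), a call not held without flox control 1, flox control 2, flox MCD 1 or flox MCD 3, where the adjusted p reached 0.099, and all 51 were lowest in flox control 1 among the control libraries. Of 27 autophagy genes 2 fell, Ulk1 and Atg14 (3 higher and 0 lower on the FPKM scale), of 16 sterol efflux and LXR target genes 1 fell, Pltp (2 higher and 1 lower on the FPKM scale), and of 19 metallothionein and iron genes 3 fell, Mt2, Hamp2 and Tfr2 (4 higher and 1 lower on the FPKM scale). Of 27 liver-secreted hormone genes 2 rose, Fgf21 and Inhbe, and 2 fell, Fetub and Mst1. None of 20 clock genes and none of 13 mitochondrial genome transcripts was called. At an unadjusted p, the same fit put 1700 genes higher and 1410 lower under 0.05, and DESeq2 called 820 higher and 833 lower genes.

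In cre mice Lpcat3 held 21.01, 23.3 and 19.6 CPM on the control diet and 22.8, 16.1 and 56.1 CPM on the MCD diet, the last in the library labelled cre MCD 3. The diet gave 1118 calls there, 616 higher and 502 lower. The 2 comparisons share no library, but both come from 1 fit with the same filter, scaling and spread. Called in the same direction in both were 386 genes, 44.3% of the flox calls and 34.5% of the cre calls, with 0 called in opposite directions. Of all 16523 tested genes, 871 (5.27%) were called in flox livers and 1118 in cre livers. The test of the difference itself, flox diet effect minus cre diet effect, called 1 gene (0.00605% of those tested), with 1483 at an unadjusted p under 0.05 and 95 called by DESeq2. That gene was Pakap, whose counts were split among rows of overlapping annotation, with values in the closing section. Effects that lay far apart without passing were those of Nr4a1 (2.91 in flox and -0.87 in cre livers, difference 3.78, adjusted p = 0.21) and Lpin1 (-2.22 and 0.10, -2.32, adjusted p = 0.36). For Elovl6 the values were -1.65 and 0.16 (-1.81, adjusted p = 0.29). None of the lipid synthesis falls described here was therefore shown to differ between genotypes.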

How the data were processed

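Polyadenylated liver RNA was sequenced from 12 libraries in 4 groups of 3, given by genotype and diet in the labels, and prepared with a SMARTER mRNA-Seq kit per the labels' protocols. The submitters' processing notes name cutadapt, FastQC, HISAT2, StringTie, edgeR and the mm10 genome. Their versions, order and strand setting are not given in the sources used here. Further called genes that overlap a gene on the other strand include Prss8 (Kat8), Aldh1l2 (D10Wsu102e), Srebf1 (Rai1), Pltp (Ctsa), Acsm1 (Gm19950) and Slc51b (Rasl12). Others are Sds (Plbd2), Dusp1 (Ergic1), Ccl27a (Il11ra1), Afp (Gm43449), Ccnd1 (LTO1) and Mst1 (Rnf123). Whether their counts include reads of the partner was not tested. The authors deposited estimated counts per gene, which StringTie-type tools derive from coverage and which are therefore not reads counted 1 by 1, and FPKM values per gene and per transcript, a unit recognised from the values because the file headers do not name it. The deposited transcript counts, correlation tables and reduced tables were not used.

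From the estimated counts, taken as deposited, genes of low count were removed (filterByExpr), libraries were scaled by TMM, and edgeR 4.0.16 in R 4.3.3 fitted the 4 group means to all 12 libraries with a quasi-likelihood test. P-values were adjusted over 16523 of 55401 genes by the Benjamini-Hochberg method, and all adjusted p-values in the text come from this test. The spread is thus shared with the cre libraries, including the library labelled cre MCD 3. Alternatives were DESeq2 1.42.0, limma 3.58.1 (voom, and log2 FPKM with a pseudocount of 1 or 0.1 for genes with an FPKM of at least 0.5 in at least 3 libraries), DESeq2 size factors, other filters, ribosomal and mitochondrial rows left out, a replicate block, the 6 flox libraries alone, and each library left out. Counts were simulated for 15858 genes with 1 fixed spread for every gene and changes only in genes above 1 CPM. There the fit recovered 18% of genes raised 2-fold, 10% of those lowered 2-fold and 96% of those changed 4-fold in either direction. It made 0 false calls among 110, and even in this setting most changes of 2-fold were missed. Spread differs between genes in the real libraries, so these shares do not carry over to them. Intervals and floors cover counting error only.

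The 59 gene lists and the members named were chosen with earlier results of these data known. Named genes were Lpcat3 and Sult1e1, the 15 largest rises and 15 largest falls called in every leave-one-out fit, with a mean of at least 5 CPM and no overlap, up to 6 called members of each list in each direction, key genes of each list, and the strongest members of lists with under 2 calls. Promoter windows are RefSeq's, of GRCm38.p6. Results for some genes are not reported here.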

Additional observations from a re-analysis of the deposited data

Results flagged for a closer look

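The diet effect on Pakap, an A-kinase anchor and paralemmin fusion locus on chromosome 4, differed between flox and cre livers by 6.45 on the log2 scale, the only difference the test of the 2 diet effects called. Its reads fall on overlapping annotation rows that share the symbol. The called row (57717657 to 57896984) went from 0.101 ± 0.0435 to 12.7 ± 0.944 CPM in flox livers (SD, n = 3 per diet). A second row held 6.04 ± 0.436 CPM in flox controls and was at 0 in every other library. Summed over rows, flox livers held 6.29 ± 0.609 and then 12.7 ± 0.944 CPM and cre livers 5.52 ± 0.384 and then 8.17 ± 1.77 CPM, and this sum was not tested.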

How the results depend on the processing

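The main counts were 437 higher and 434 lower genes. DESeq2 called 820 and 833, and held 868 of the 871 main calls. Other settings held fewer of the 871. The 6 flox libraries alone held 588 (67.5%), FPKM with a pseudocount of 1 held 529 (60.7%), and the fit without flox MCD 3 held 417 (47.9%). FPKM values gave 2279 and 167 with a pseudocount of 1 and 2085 and 160 with 0.1, where the median of all genes moved to 0.37 and 0.54. Leaving out 1 library gave 209 to 577 higher and 215 to 484 lower genes; the higher count fell to 242 with flox control 2 left out, 221 with flox MCD 1 left out and 209 with flox MCD 3 left out, and the lower count to 217, 215 and 216 without flox MCD 1, 2 and 3. Without the library labelled cre MCD 3 the counts were 436 and 468, and the 6 flox libraries alone gave 312 and 343. The difference of diet effects, with 1 call, gave 8 without a filter, 95 with DESeq2, 0 with limma voom (1572 at an unadjusted p under 0.05), 0 and 0 with FPKM, and 1 to 2 when a library was left out. The cause of these moves was not tested. Over named genes and alternatives, 7157 comparisons had the same outcome as the main fit, and these include genes called in neither. A call was lost in 739 comparisons and gained in 153, and no called value changed sign. Replicate numbers were shared between groups, and same-numbered flox libraries correlated at 0.016, 0.021 and 0.046 in their deviations. Same-numbered flox control and cre MCD libraries correlated at 0.283, -0.029 and 0.345, and those of different number at -0.345 to 0.080. With 3 libraries per group these values cannot settle whether the numbers pair libraries, and the main fit took them as unpaired. The replicate block gave 546 higher, 500 lower and 1 differing gene.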
